A study of Mus musculus with 9 samples.

Results

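The genes described here are 33 genes of cholesterol and fatty acid synthesis and of its control, chosen by name from a list and found by the gene name given in each library's count file. All 33 were present among the 32137 genes of the files, and all 33 were among the 17011 genes with enough counts to test. They comprise 19 enzymes of the sterol pathway, 5 regulators of the SREBP system, 3 genes of sterol transport and efflux, and 6 genes of fatty acid synthesis. RNA was measured in 9 libraries of sorted cells from differentiated bile duct organoids, which are cultures of duct epithelium grown in a gel. All came from 1 male mouse of mixed genetic background that carried Axin2CreERT2+/- and R26-LSL-tdTom+/-, so that a cell expressing Axin2, a target of Wnt signalling, acquires red tdTomato fluorescence when tamoxifen activates the Cre. All groups received 3 uM dexamethasone and 500 nM 4-hydroxytamoxifen in the last 24 h of an 11-day differentiation. The untreated group held tdTomato-negative cells without Rspo1, the secreted Wnt enhancer R-spondin 1. The Rspo1-negative and Rspo1-positive groups held tdTomato-negative and tdTomato-positive cells from organoids given 100 ng/ml Rspo1 over the same 24 h. Each group had 3 libraries, 1 each from passages 5, 6 and 10 of the organoid line, so the replicates of a group are passages of cultures from the same animal and not separate animals.

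Cholesterol is built from acetyl-CoA through mevalonate, farnesyl diphosphate, squalene and lanosterol. The transcription factor SREBP2, encoded by Srebf2, is the main activator of these enzymes, and SREBP1, encoded by Srebf1, acts mainly on fatty acid synthesis. Scap escorts the SREBP precursors out of the endoplasmic reticulum when sterols are low, and Insig1 and Insig2 hold them back when sterols are high. Oxysterols activate LXR receptors, which induce the cholesterol exporters Abca1 and Abcg1 and also Srebf1. Cholangiocytes, the cells of the bile duct lining, are exposed to cholesterol and bile acids in bile.

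Promoter sequences from RefSeq (GRCm38.p6, 250 bases before to 50 after each gene's start) were matched for 26 of the 33 members. They were searched on both strands for CCAAT, the site of NF-Y, a factor that works beside SREBP, for GGGCGG, the core of an Sp1 site, for CACGTG, an E-box, and for TCACNCCAC, a classical sterol regulatory element. CCAAT was found in 21 of the 26 member promoters (80.8%) and in 41.1% of the promoters of all 27025 genes in the table. GGGCGG was likewise found in 21 members (80.8%), against 38.2% of all genes, and CACGTG in 6 members (23.1%), against 8.09%. TCACNCCAC was found in 1 member, Hmgcs1, and in 1.44% of all genes. These matches are letters in a window and not measured sites, and a window without a match says nothing of binding elsewhere. All 33 members had enough counts to test, but the 27025 genes were not limited in this way. The shares of members and of all genes are therefore not matched for expression. The 3 promoters below belong to the sterol enzyme with the TCACNCCAC match, to the sterol enzyme that differed most between passages, and to the fatty acid elongase that differed most between groups; the last 2 were chosen after their values had been seen. Capitals mark CCAAT, which reads ATTGG where it lies on the opposite strand, and TCACNCCAC. The window of Hmgcs1 is chr13:119690101-119690400 on the plus strand, that of Hsd17b7 chr1:169969156-169969455 on the minus strand, and that of Elovl6 chr3:129532136-129532435 on the plus strand.
Hmgcs1: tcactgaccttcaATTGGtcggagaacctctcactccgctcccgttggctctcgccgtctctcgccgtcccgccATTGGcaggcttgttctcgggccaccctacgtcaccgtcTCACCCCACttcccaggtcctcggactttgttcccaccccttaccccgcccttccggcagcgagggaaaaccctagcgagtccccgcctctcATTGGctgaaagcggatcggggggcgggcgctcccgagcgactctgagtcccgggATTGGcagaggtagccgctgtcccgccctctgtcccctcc
Hsd17b7: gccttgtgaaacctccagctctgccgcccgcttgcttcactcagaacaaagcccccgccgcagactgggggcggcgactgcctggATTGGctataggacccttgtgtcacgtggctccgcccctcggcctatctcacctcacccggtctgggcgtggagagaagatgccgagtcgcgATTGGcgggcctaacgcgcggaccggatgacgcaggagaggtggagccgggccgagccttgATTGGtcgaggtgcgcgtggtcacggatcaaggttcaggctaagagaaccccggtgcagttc
Elovl6: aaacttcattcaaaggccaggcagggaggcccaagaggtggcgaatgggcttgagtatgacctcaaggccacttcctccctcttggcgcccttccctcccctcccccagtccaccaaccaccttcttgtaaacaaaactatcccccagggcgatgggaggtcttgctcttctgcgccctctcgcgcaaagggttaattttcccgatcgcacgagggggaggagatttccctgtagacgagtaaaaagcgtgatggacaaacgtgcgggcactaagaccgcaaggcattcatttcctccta
The Hmgcs1 window held 4 CCAAT matches and 1 TCACNCCAC match, at bases 114 to 122 of the window. The Hsd17b7 window held 3 CCAAT matches and 1 CACGTG match, and the Elovl6 window held none of these 3 motifs.

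Total counts ranged from 23423979 to 37351448 per library. The 7 duct epithelium markers, Krt19, Krt7, Epcam and Sox9 among them, summed to between 8642 and 10489 CPM in untreated libraries. Their sums were 7192 to 10009 CPM in Rspo1-negative and 6508 to 8202 CPM in Rspo1-positive libraries. In sums over markers, CPM are counts scaled to the library total. For single genes, this total was first adjusted by TMM scaling between libraries. Among hepatocyte markers, Cps1, Cyp2e1 and Serpina1a stood at 0 to 7 counts, while Ttr (5183 to 20079 counts) and Hnf4a (3326 to 8402 counts) were present. The endothelial gene Cdh5 was at 0 counts in every library, and Pecam1 and Ptprc at no more than 6 and 5. In the same list of mesenchyme, endothelium and blood markers, Cd68 was present at 178 to 865 counts. Col1a1 stood at 2 to 24 counts and Col1a2 at 0 to 3. Axin2 itself exceeded its untreated level in both Rspo1 groups, by log2 differences of 5.29 (Rspo1-positive, adjusted p = 3.6e-06) and 4.98 (Rspo1-negative, adjusted p = 1.58e-05). Between the tdTomato-positive and tdTomato-negative cells given Rspo1, Axin2 did not differ detectably (0.31, adjusted p = 0.28). Adjusted p-values throughout come from edgeR's quasi-likelihood test with group and passage in the fit and Benjamini-Hochberg adjustment over 17011 genes, and a gene was called when its adjusted p was under 0.05. As all cells of an organoid culture come from the same animal, these p-values measure the spread between libraries of that animal only.

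On the authors' deposited FPKM scale, which is per gene length, the stearoyl-CoA desaturase Scd2 was the member with the highest median over the 9 libraries (349), followed by Srebf2 (114), the ATP citrate lyase Acly (96.6), the sterol methyl oxidase Msmo1 (82.1) and the HMG-CoA synthase Hmgcs1 (80.3). The lowest medians were those of Abca1 (0.552), the isopentenyl diphosphate isomerase Idi1 (1.92), Abcg1 (2.05) and the acetyl-CoA carboxylase Acaca (3.76). Of the paralogs Scd1 and Scd2, which introduce the same kind of unsaturated bond into saturated acyl chains, Scd2 was 15.7 to 29.8 times as high as Scd1 in FPKM. Insig1 was 2.07 to 7.84 times as high as Insig2, and Srebf2 was 1.43 to 2.68 times as high as Srebf1. Ratios between genes carry the uncertainty of each gene's counting. Of all 75-base windows in the longest transcript, 47.4% were identical to sequence of another annotated gene in Acaca (Gm5182), 40.7% in the acetyl-CoA acetyltransferase Acat2 (Acat3 and Tcp1), 29.1% in Idi1 (Gm13502 among others), 25.4% in the squalene synthase Fdft1 (mainly Ctsb, which overlaps it on the other strand) and 12.2% in Hmgcs1 (Gm48342, also on the other strand). The counts of these 5 genes are uncertain for reads that fall in such sequence. For genes that overlap another on the opposite strand, the strand setting matters as well, and it is not given in the sources used here. Counts of the farnesyl diphosphate synthase Fdps are uncertain too, as 26.7% of its exon bases lie in Gm43738, on the same strand. So are those of Scap, with 13.2% in 5830462I19Rik on the opposite strand.

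**Figure D1:**
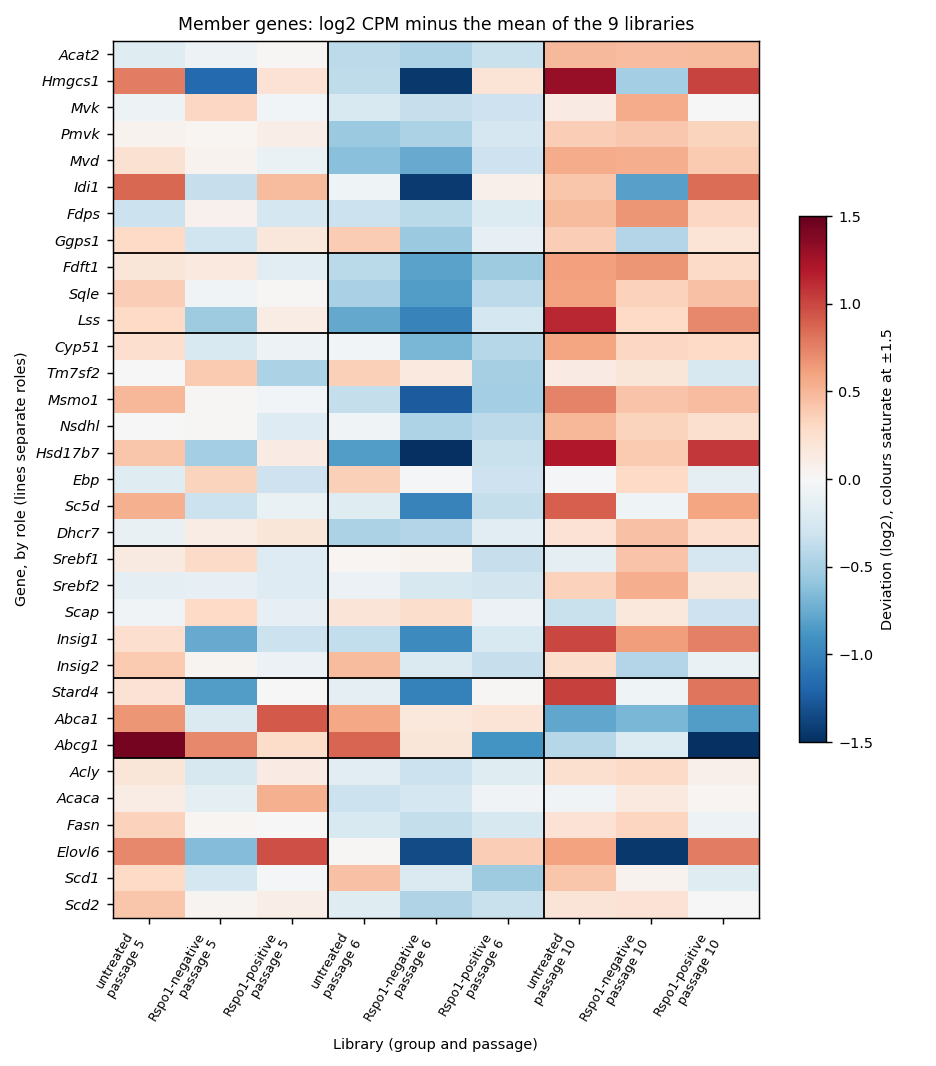
Each cell shows a member's log2 CPM in 1 library minus its mean over the 9 libraries, with genes in rows by role and libraries in columns by passage and group. Most sterol enzymes in the upper 19 rows are blue at passage 6 and red at passage 10, and Hmgcs1, Idi1, Stard4 and Elovl6 are lowest in the Rspo1-negative library of each passage.

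The first comparison asks how cells that turned on the reporter under Rspo1 differ from untreated cells. In Rspo1-positive cells 4 of the 33 members were lower and none was higher, where 13.2% of all genes tested differed, 6.77% lower and 6.44% higher. By edgeR 7 members had an unadjusted p under 0.05, and DESeq2 likewise called 4 lower and none higher. The 4 were the oxysterol-responsive exporter Abcg1, the desaturase Scd1, the sterol reductase Tm7sf2 and the SREBP retention factor Insig2. The share of members called in either direction, 12.1%, is close to the 13.2% of all genes. All 4 calls were lower, however, where 6.77% of all genes were lower. The median log2 fold change of the members was -0.14 beside -0.0017 over all genes. Cell type markers moved in this comparison too. The summed duct markers of the Rspo1-positive libraries lay below all untreated ones, with Krt19 lower (-1.06) and Sox9 (1.34) and Spp1 (0.73) higher, and 2 of the 4 hepatocyte markers tested, Alb (-1.07) and Hnf4a (-0.56), were lower. Summed hepatocyte markers ran from 331 to 560 CPM in Rspo1-positive, 412 to 728 CPM in Rspo1-negative and 380 to 658 CPM in untreated libraries. Their part in the differences of the members was not tested. As cells were sorted and sequenced in bulk, less RNA per cell and fewer cells of a kind cannot be told apart.

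Abcg1 stood at 17.7, 12.04 and 4.84 CPM in untreated cells at passages 5, 6 and 10 and at 7.93, 3.47 and 1.62 CPM in Rspo1-positive cells. It was lower at every passage, although the groups overlapped across passages, and the log2 difference was -1.47 (SE 0.24, adjusted p = 0.00197 by edgeR). Scd1 stood at 81.3, 89.5 and 88.4 CPM in untreated cells and at 65.4, 45.5 and 58.4 CPM in Rspo1-positive cells, without overlap (-0.62, SE 0.14, adjusted p = 0.013). Tm7sf2, which reduces a sterol intermediate after lanosterol, stood at 126, 161 and 138 CPM in untreated cells. In Rspo1-positive cells Tm7sf2 was at 90.5, 89.7 and 107 CPM, again without overlap (-0.57, SE 0.14, adjusted p = 0.021). Insig2 stood at 45.6, 48.3 and 41.6 CPM in untreated and at 32.5, 27.3 and 32.4 CPM in Rspo1-positive cells (-0.55, SE 0.13, adjusted p = 0.0181). The groups did not overlap for Insig2 either. Of all genes tested, 11.8% were lower without overlap in this comparison.

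None of the 8 enzymes from acetyl-CoA to farnesyl and geranylgeranyl diphosphate was called between Rspo1-positive and untreated cells, and their log2 fold changes ran from -0.27 to 0.10. None of the 3 enzymes from farnesyl diphosphate to lanosterol was called either (-0.27 to -0.04). None of these 11 enzymes had an unadjusted p under 0.05 by edgeR, and DESeq2 called none of them. Hmgcs1, which makes HMG-CoA, the precursor of mevalonate, had -0.10 (SE 0.19, adjusted p = 0.806 by edgeR) and Srebf2 -0.14 (SE 0.14, adjusted p = 0.57). A value that misses the threshold at this number of libraries does not show equality. Among fatty acid genes, Fasn, the fatty acid synthase, had -0.22 (SE 0.15, adjusted p = 0.4) and the elongase Elovl6 0.25 (SE 0.14, adjusted p = 0.313). With each library left out in turn, the number of members called fell to 2 without the Rspo1-positive library of passage 5 and to 1 without that of passage 6. Abcg1 stayed called with each library left out; the highest adjusted p on leaving out a library was 0.156 for Tm7sf2, 0.142 for Insig2 and 0.113 for Scd1. Without passage in the fit 2 members were called, Tm7sf2 and Scd1.

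The second comparison set the tdTomato-negative cells of Rspo1-treated organoids against tdTomato-negative cells of untreated ones. Here 13 of 33 members were lower and none higher, where 35.5% of all genes tested differed, 20% lower and 15.5% higher. DESeq2 called these 13 and Scap, which was higher by its test. The 13 comprised 8 sterol enzymes, both Insig genes, the sterol carrier Stard4, the elongase Elovl6 and Scd1. The median log2 fold change of the members was -0.20 beside -0.0086 over all genes. The share of members called in either direction, 39.4%, is again close to the 35.5% of all genes. All 13 calls were lower, however, where 20% of all genes were lower. Of the 7 duct markers 1 was called in this comparison, Sox9, which was higher (1.07). Of the 4 hepatocyte markers tested 1 was called, Hnf4a, which was lower (-0.47). Ttr was not called but lay higher in Rspo1-negative cells at each passage (0.42). The part of these markers was not tested either.

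Hmgcs1 had the largest change of the members. Its levels at passages 5, 6 and 10 were 411, 186 and 601 CPM in untreated cells, 108, 89.0 and 169.7 CPM in Rspo1-negative cells, and 281, 279.7 and 490.2 CPM in Rspo1-positive cells. All 3 Rspo1-negative libraries lay under every library of the other groups, and the fitted log2 difference from the untreated ones came to -1.63 (SE 0.20; edgeR adjusted p = 0.000275). Idi1, which isomerises the 5-carbon building block of isoprenoids, stood at 10.1, 5.28 and 7.397 CPM in untreated and at 4.36, 2.02 and 3.13 CPM in Rspo1-negative cells. Again no libraries overlapped (-1.26, SE 0.21, adjusted p = 0.00114). Ggps1, the geranylgeranyl diphosphate synthase of the side branch to prenylation, stood at 27.9, 29.8 and 29.5 CPM in untreated and at 18.6, 15.4 and 16.8 CPM in Rspo1-negative cells (-0.78, SE 0.13, adjusted p = 0.00123). It too was lower without overlap, as were 20% of all genes tested.

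Further along the pathway Lss, the lanosterol synthase, stood at 225, 108 and 402 CPM in untreated and at 127, 91.7 and 225 CPM in Rspo1-negative cells. It was lower at each passage, with groups that overlapped across passages (-0.65, SE 0.16, adjusted p = 0.0114 by edgeR). Hsd17b7, a sterol keto-reductase, stood at 45.1, 19.0 and 78.1 CPM in untreated and at 23.8, 11.8 and 44.5 CPM in Rspo1-negative cells (-0.81, SE 0.15, adjusted p = 0.0023). Sc5d, the sterol desaturase near the end of the pathway, stood at 129.6, 78.6 and 166 CPM in untreated and at 71.5, 44.5 and 85.4 CPM in Rspo1-negative cells (-0.88, SE 0.13, adjusted p = 0.000544). For both, each passage was lower in Rspo1-negative cells while the groups overlapped across passages. Msmo1 (-0.55, adjusted p = 0.0203) and the lanosterol demethylase Cyp51 (-0.47, adjusted p = 0.0153) completed the enzymes that fell. The other 11 sterol enzymes were not called, with log2 fold changes from -0.34 (Sqle, the squalene epoxidase) to 0.24 (Mvk, the mevalonate kinase).

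Among regulators, Insig1, an SREBP target as well as an SREBP inhibitor, stood at 155, 100.3 and 259 CPM in untreated and at 77.1, 67.1 and 201 CPM in Rspo1-negative cells (-0.65, SE 0.16, adjusted p = 0.00908 by edgeR). Insig2 was at 35.6, 29.8 and 25.6 CPM in Rspo1-negative cells, under all 3 untreated libraries (-0.58, SE 0.13, adjusted p = 0.00691). Srebf2 stood at 565, 587 and 792 CPM in untreated and at 569.7, 526 and 903 CPM in Rspo1-negative cells, a change of 0.02 (SE 0.14, adjusted p = 0.938). Neither Srebf1 (0.25, adjusted p = 0.175) nor Scap (0.30, adjusted p = 0.0639) was called by edgeR. Scap was called by DESeq2 (0.33, adjusted p = 0.0374) and by edgeR with upper-quartile scaling (0.38, adjusted p = 0.0197). Stard4, which carries sterols between membranes, stood at 87.1, 67.2 and 152 CPM in untreated and at 41.7, 36.8 and 71.6 CPM in Rspo1-negative cells. Its groups overlapped by 1 library, the Rspo1-negative one of passage 10, and it was lower at each passage (-1.01, SE 0.12, adjusted p = 0.000241).

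Elovl6, which lengthens palmitate to stearate, stood at 55.7, 34.1 and 51.2 CPM in untreated and at 21.4, 13.2 and 12.3 CPM in Rspo1-negative cells. All Rspo1-negative libraries lay below the rest (-1.59, SE 0.15, adjusted p = 0.000137 by edgeR). Scd1 was at 54.9, 56.7 and 68.7 CPM in Rspo1-negative cells, under the untreated values given above (-0.53, SE 0.14, adjusted p = 0.0135). The other fatty acid genes, Acly, Acaca, Fasn and Scd2, were not called, with changes from -0.20 (Scd2) to 0.01 (Acaca).

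Levels in the Rspo1-negative libraries varied with the GC content of transcripts, in the members as in other genes. Across genes, which are not independent replicates, the rank correlation between a gene's GC content and its Rspo1-negative over untreated log2 ratio was 0.813 over the 33 members and 0.512 over 17001 genes. For the Rspo1-positive over untreated ratio it was 0.032 over the members and -0.016 over all genes. Of the 17 members with GC content at or under the member median of 49.2%, 12 were lower in Rspo1-negative cells, compared with 1 of the 16 above it. Within each library, the rank correlation of GC content with a gene's deviation from its mean was 0.304 to 0.535 in the 3 Rspo1-negative libraries and -0.43 to -0.152 in the other 6. When a smooth trend in GC content and transcript length was taken out of each library, 7 members were lower and 1 higher in the Rspo1-negative group relative to the untreated one. The lower ones were Hmgcs1 (-1.21, adjusted p = 0.00283 by edgeR), Elovl6 (-1.09, adjusted p = 0.000557), Idi1 (-0.70, adjusted p = 0.0275), Insig1 (-0.58, adjusted p = 0.0287), Stard4 (-0.52, adjusted p = 0.0136), Insig2 (-0.47, adjusted p = 0.0187) and Mvd (-0.47, adjusted p = 0.021), the mevalonate diphosphate decarboxylase. Acaca was the higher one (0.60, adjusted p = 0.0139), with the shared sequence noted above. Hsd17b7 (-0.46, adjusted p = 0.0659), Sc5d (-0.31, adjusted p = 0.114), Lss (-0.37, adjusted p = 0.114), Scd1 (-0.38, adjusted p = 0.0617), Ggps1 (-0.22, adjusted p = 0.218), Cyp51 (-0.21, adjusted p = 0.3) and Msmo1 (-0.20, adjusted p = 0.442) were no longer called. With this trend removed, the rank correlation of GC content with the log2 ratio was still 0.431 over the members, and 0.027 over all genes. The part of GC content in these differences was not tested beyond this.

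**Figure D2:**
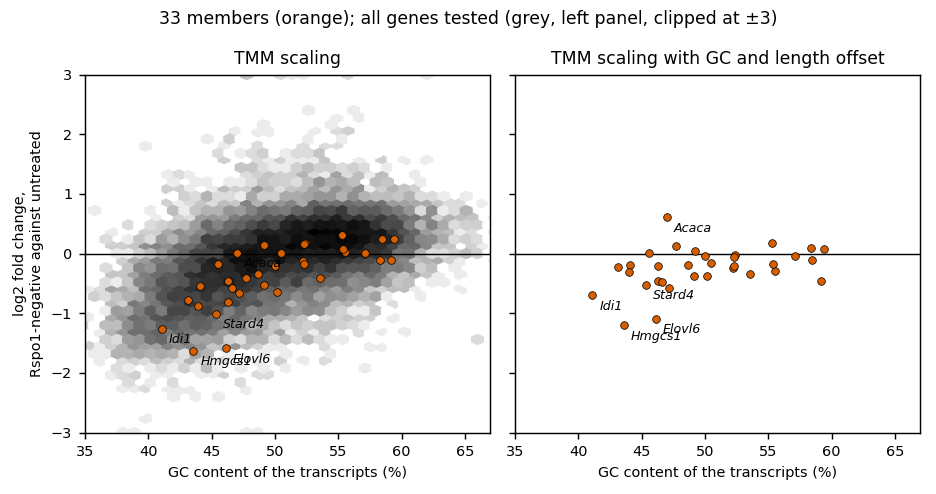
GC content of the transcripts (%) on the horizontal axis against the Rspo1-negative over untreated log2 ratio, for the 33 members in orange and all genes tested as grey density (left). With the trend in GC content and length removed (right) Hmgcs1 stays at -1.21 and Elovl6 at -1.09, while members of low GC content as a whole lie closer to 0.

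The number of members called in this comparison was 8 without the Rspo1-negative library of passage 5, and 6 without passage in the fit: Hmgcs1, Idi1, Ggps1, Insig2, Elovl6 and Scd1. Hmgcs1, Idi1, Ggps1, Hsd17b7, Sc5d, Stard4 and Elovl6 stayed called with each library left out. The highest adjusted p on leaving out a library was 0.0766 for Lss, 0.0752 for Cyp51, 0.0957 for Msmo1, 0.0764 for Insig1, 0.0658 for Insig2 and 0.0948 for Scd1.

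The third comparison set the tdTomato-positive against the tdTomato-negative cells of Rspo1-treated organoids. It shares the Rspo1-negative libraries with the previous comparison and the Rspo1-positive libraries with the first one, so the 3 are not independent. In Rspo1-positive cells 8 members were higher and 5 lower, where 38.9% of all genes tested differed, 21.5% higher and 17.4% lower. The share of members called, 39.4%, is close to that of all genes. The median log2 fold change of the members was 0.07 beside 0.03 over all genes.

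Elovl6 had the largest difference. In Rspo1-positive cells it stood at 66.0, 43.4 and 57.4 CPM, above all 3 Rspo1-negative libraries (log2 difference 1.84, SE 0.15, adjusted p = 9.19e-05 by edgeR). Hmgcs1 differed by 1.53 (SE 0.20, adjusted p = 0.000394), with the values given above. Idi1 stood at 7.73, 5.84 and 9.96 CPM in Rspo1-positive cells, above all Rspo1-negative values (1.33, SE 0.21, adjusted p = 0.000937). Stard4 was at 74.6, 75.7 and 131 CPM, also without overlap (0.92, SE 0.12, adjusted p = 0.000389). Of all genes tested, 24.6% were higher and 20.6% lower without overlap in this comparison. The others that were higher were Hsd17b7 (0.83, adjusted p = 0.00205), Lss (0.61, adjusted p = 0.0137), Ggps1 (0.52, adjusted p = 0.00998) and Sc5d (0.51, adjusted p = 0.00854).

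The 5 members that were lower in the Rspo1-positive cells of this pair were Abcg1, Tm7sf2, Srebf1, Ebp and Scap. Abcg1 stood at 10.8, 7.41 and 5.67 CPM in Rspo1-negative cells (-1.07, SE 0.24, adjusted p = 0.00633 by edgeR), higher than in Rspo1-positive cells of the same passage each time. Tm7sf2 stood at 166, 140.0 and 143 CPM in Rspo1-negative cells, above all Rspo1-positive libraries (-0.65, SE 0.14, adjusted p = 0.00484). Srebf1 stood at 304, 282 and 251 CPM in untreated cells, at 337, 287 and 373 CPM in Rspo1-negative cells and at 243, 217 and 232 CPM in Rspo1-positive cells. The Rspo1-positive libraries were the lowest without overlap, and the difference from Rspo1-negative cells was -0.53 (SE 0.13, adjusted p = 0.011). Scap stood at 107, 127 and 88.2 CPM in untreated cells, 137, 134 and 124 CPM in Rspo1-negative cells and 102, 104.7 and 89.6 CPM in Rspo1-positive cells (-0.42, SE 0.12, adjusted p = 0.0169). The sterol isomerase Ebp differed by -0.47 (adjusted p = 0.0383).

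With the trend in GC content and length removed, 5 members were higher and 1 lower in Rspo1-positive against Rspo1-negative cells. Elovl6 (1.27, adjusted p = 0.000516 by edgeR), Hmgcs1 (1.03, adjusted p = 0.00651), Idi1 (0.70, adjusted p = 0.0266), Mvd (0.40, adjusted p = 0.0363) and the phosphomevalonate kinase Pmvk (0.41, adjusted p = 0.0183) were the higher ones. Abcg1 was the lower one (-1.18, adjusted p = 0.00683). Ggps1 (-0.12, adjusted p = 0.489) and Sc5d (-0.13, adjusted p = 0.509) changed sign. Stard4, Hsd17b7, Lss, Tm7sf2, Srebf1, Scap and Ebp kept their sign but were no longer called. Their adjusted p ran from 0.0569 (Stard4) to 0.196 (Lss) by edgeR. Over the members, the rank correlation of GC content with the log2 ratio was -0.748 before and -0.224 after removal of the trend. The count of members called was 7 without the Rspo1-negative library of passage 10, 8 without the Rspo1-positive library of passage 10, and 6 without passage in the fit. With each library left out the highest adjusted p by edgeR was 0.225 for Ebp, 0.103 for Lss and 0.0874 for Scap. It was 0.0857 for Sc5d, 0.084 for Ggps1 and 0.0801 for Srebf1. The other 7 stayed called in these fits, from which the GC trend was not removed. Proliferation moved with the groups as well: 7 cell cycle genes such as Mki67 and Top2a summed to 119 to 164 CPM in untreated, 224 to 276 CPM in Rspo1-negative and 665 to 745 CPM in Rspo1-positive libraries. Of the 7 duct markers 2 were lower in the Rspo1-positive cells of this pair, Krt19 (-0.76) and Krt7 (-0.64). Sox9 and Spp1 were not called but lay higher in these cells at each passage. Of the 4 hepatocyte markers tested 2 were lower, Alb (-0.66) and Ttr (-0.65). The part of these genes in the differences of the members was not tested.

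**Figure D3:**
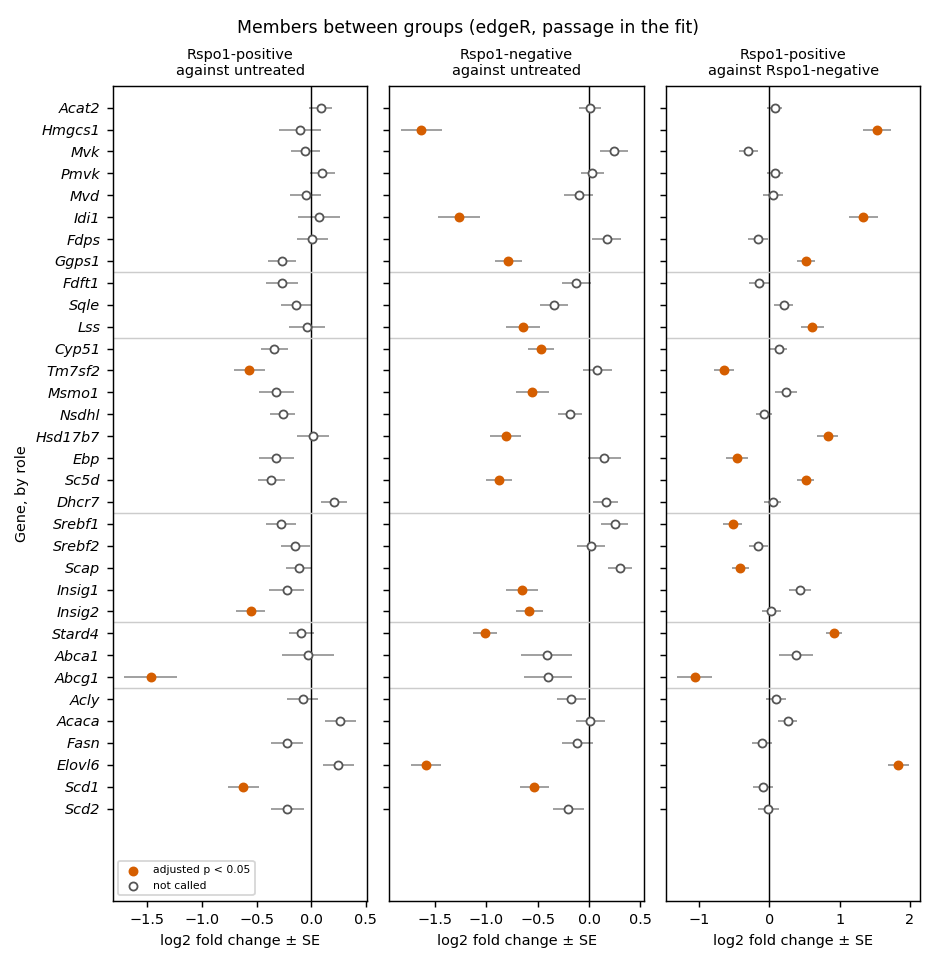
Log2 fold change with its standard error for each member, by role, in the 3 comparisons between groups; filled points had an adjusted p under 0.05. The 13 filled points of the middle panel, Rspo1-negative over untreated, all lie left of 0, led by Hmgcs1 (-1.63) and Elovl6 (-1.59).

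Many sterol enzymes also differed between passages 5, 6 and 10. A passage is represented by 1 culture stage of the line, split over 3 groups, so the tests below measure whether the 3 libraries of a passage differ from those of another beyond their spread, and not what passaging does in general. At passage 10 compared with passage 6, 18 of the 33 members were higher and 2 lower, where 8.45% of all genes tested differed, 4.4% higher and 4.05% lower. Among the 19 sterol enzymes 15 were higher and none lower by edgeR as by DESeq2, with a median log2 fold change of 0.80 beside 0.0029 over all genes. The share called among all 33 members was 60.6%. Passage 6 also had 8 members lower than passage 5 and none higher (background 2.49%, 1.33% lower and 1.16% higher; DESeq2 called 13 lower and none higher), and passage 10 had 8 members higher and 2 lower than passage 5 (background 9.07%, 4.57% higher and 4.5% lower). The 3 passage comparisons share libraries and are not independent.

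The order was alike in every group for many sterol enzymes. In 14 of the 33 members, all of them sterol enzymes, passage 6 had the lowest and passage 10 the highest level within each of the 3 groups, an order found in 2.57% of all genes tested. Hsd17b7 had the largest difference between passages 10 and 6. Its levels, given above for the other groups, were 36.8, 26.8 and 70.9 CPM at passages 5, 6 and 10 in Rspo1-positive cells. All 3 libraries of passage 10 lay above all 3 of passage 6 (1.77, SE 0.15, adjusted p = 0.000504 by edgeR), as in 8% of all genes tested. Passage 6 was 0.89 lower than passage 5 (SE 0.15, adjusted p = 0.0126) on the log2 scale.

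Of the first 8 enzymes, Acat2, which makes acetoacetyl-CoA, stood at 56.1, 48.7 and 89.3 CPM in untreated cells at passages 5, 6 and 10, at 60.5, 46.5 and 88.4 CPM in Rspo1-negative cells and at 64.9, 50.7 and 88.7 CPM in Rspo1-positive cells. The groups were close to each other at each passage, and passage 10 was above the rest (0.87 against passage 6, SE 0.11, adjusted p = 0.00114 by edgeR). Mvd stood at 97.8, 54.0 and 123 CPM in untreated cells and differed by 1.06 (SE 0.14, adjusted p = 0.00164) between passages 10 and 6. Hmgcs1 (1.12, adjusted p = 0.00654), Pmvk (0.80, adjusted p = 0.00215), Fdps (0.79, adjusted p = 0.0074) and Mvk (0.52, adjusted p = 0.0354) were higher too. Idi1 (0.64, adjusted p = 0.08) and Ggps1 (0.14, adjusted p = 0.546) were not called.

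All 3 enzymes that turn farnesyl diphosphate into lanosterol were higher at passage 10 than at passage 6. Fdft1 stood at 234, 156 and 316 CPM in untreated, 228, 118 and 325 CPM in Rspo1-negative and 183, 143 and 250.4 CPM in Rspo1-positive cells (1.09, SE 0.14, adjusted p = 0.0015 by edgeR). Sqle stood at 441, 244 and 518 CPM in untreated, 329.8, 190.5 and 435 CPM in Rspo1-negative and 345, 259.6 and 462 CPM in Rspo1-positive cells (1.03, SE 0.14, adjusted p = 0.00141). Lss was at 199, 152 and 303 CPM in Rspo1-positive cells, and its difference over the groups was 1.39 (SE 0.17, adjusted p = 0.00111). In each of these 3 genes passage 6 was the lowest in every group.

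Between lanosterol and cholesterol 6 of 8 enzymes were higher at passage 10 than at passage 6. Msmo1 stood at 331, 182 and 392 CPM in untreated, 236, 98.7 and 314 CPM in Rspo1-negative and 227, 163 and 322 CPM in Rspo1-positive cells (1.24, SE 0.16, adjusted p = 0.00132 by edgeR). Sc5d (0.99, adjusted p = 0.0012), Cyp51 (0.79, adjusted p = 0.00442), the last reductase Dhcr7 (0.66, adjusted p = 0.0079) and the demethylation enzyme Nsdhl (0.66, adjusted p = 0.00705) were also higher. Tm7sf2 (0.02, adjusted p = 0.961) and Ebp (0.02, adjusted p = 0.947) stood apart from their neighbours in the pathway, with no detectable difference between any 2 passages.

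Of the regulators, Srebf2 and Insig1 were higher at passage 10. Srebf2 stood at 541, 514 and 699 CPM in Rspo1-positive cells, and in all 3 groups passage 10 was the highest (0.55 against passage 6, SE 0.14, adjusted p = 0.0306 by edgeR; 0.51 against passage 5, adjusted p = 0.0407). Insig1 stood at 104, 111 and 219.6 CPM in Rspo1-positive cells, and passage 10 exceeded passage 6 by 1.31 (SE 0.16, adjusted p = 0.00114) and passage 5 by 1.07 (SE 0.16, adjusted p = 0.00309). Insig2 (-0.06, adjusted p = 0.824), Srebf1 (0.10, adjusted p = 0.695) and Scap (-0.29, adjusted p = 0.157) were not called between passages 10 and 6.

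The exporters went the other way. Abca1, which loads cholesterol onto apolipoprotein, stood at 8.12, 7.63 and 2.94 CPM in untreated, 4.39, 5.68 and 3.13 CPM in Rspo1-negative and 9.70, 5.90 and 2.83 CPM in Rspo1-positive cells at passages 5, 6 and 10. All passage 10 libraries were below all others, and the log2 difference was -1.10 from passage 6 (SE 0.25, adjusted p = 0.0213 by edgeR) and -1.28 from passage 5 (SE 0.25, adjusted p = 0.0107). Abcg1 was lower at passage 10 than at passage 5 by the same test (-1.67, SE 0.24, adjusted p = 0.00282) and than at passage 6 (-0.91, SE 0.24, adjusted p = 0.0436), and within each group its level fell from passage 5 to 6 to 10. Stard4 was higher at passage 10 (0.97 against passage 6, SE 0.12, adjusted p = 0.00111).

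None of the 6 fatty acid genes was called by edgeR between passages 10 and 6 or between passages 10 and 5, with an unadjusted p under 0.05 for 3 and 1 of them. DESeq2 called Acly, Fasn and Scd2 higher at passage 10 than at 6 (0.41, 0.41 and 0.44) and none between passages 10 and 5. Their log2 fold changes between passages 10 and 6 were all above 0, from 0.20 (Scd1) to 0.46 (Scd2), with a median of 0.37. Scd2 stood at 2390, 1583 and 2054 CPM in untreated cells, at 1845, 1319 and 2082 CPM in Rspo1-negative cells and at 1919, 1429 and 1800 CPM in Rspo1-positive cells. Fasn stood at 819, 553 and 752 CPM in untreated, 656, 504 and 808 CPM in Rspo1-negative and 641, 549 and 611 CPM in Rspo1-positive cells. In both genes passage 6 was lowest in every group, but the differences did not pass the test (Fasn 0.43, adjusted p = 0.101 by edgeR; Scd2 0.46, adjusted p = 0.0875). Elovl6 was lower at passage 6 than at passage 5 (-0.67, adjusted p = 0.0371). Acly, Acaca, Fasn and Scd2 were called by edgeR in none of the 6 comparisons between groups or passages.

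**Figure D4:**
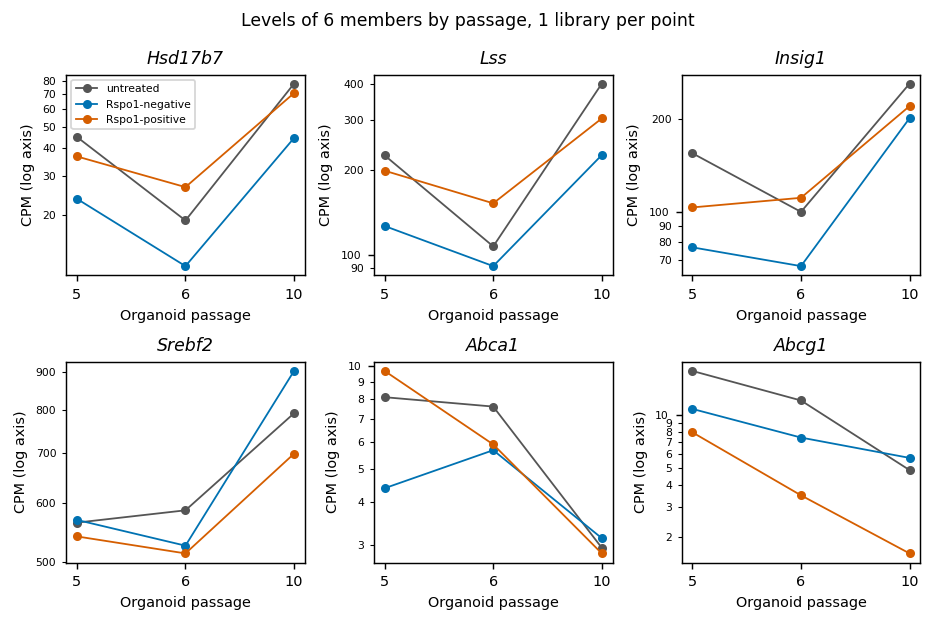
CPM on a log axis at passages 5, 6 and 10 for 6 members, with 1 point per library and a line per group. Hsd17b7 and Lss are lowest at passage 6 and highest at passage 10 in each group, Srebf2 is highest at passage 10, and Abca1 and Abcg1 are lowest there.

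Compared with passage 5, passage 6 was also lower by the test in Msmo1 (-0.85, adjusted p = 0.0206 by edgeR), Sqle (-0.68, adjusted p = 0.0256), Fdft1 (-0.62, adjusted p = 0.0487), Mvd (-0.62, adjusted p = 0.0469), Sc5d (-0.56, adjusted p = 0.0429) and Pmvk (-0.49, adjusted p = 0.0492). Passage 10 exceeded passage 5 in Hsd17b7 (0.88, adjusted p = 0.00563), Stard4 (0.80, adjusted p = 0.00283), Lss (0.77, adjusted p = 0.0175), Fdps (0.65, adjusted p = 0.0179), Acat2 (0.56, adjusted p = 0.0101) and Nsdhl (0.41, adjusted p = 0.0498). Between passages 10 and 6, 16 to 19 members were called with each library left out and 19 with the trend in GC content and length removed. The count for passage 6 against 5 ranged from 0 (without the untreated or the Rspo1-negative library of passage 5) to 7, and that for passage 10 against 5 from 4 (without the untreated library of passage 10) to 17 (without the untreated library of passage 6). When group was left out of the fit, so that differences between groups added to the spread, none of the 33 members was called between any passages by edgeR. An unadjusted p under 0.05 was then found for 20 members between passages 10 and 6, 11 between 10 and 5 and 8 between 6 and 5. DESeq2 with group in the fit called 23, 14 and 13. Other features moved with passage too: the most abundant gene took 2.91% to 8.89% of counts in the passage 6 libraries, 1.16% to 1.61% at passage 5 and 1.99% to 4.35% at passage 10. Of the 7 proliferation genes 4 were higher at passage 6 than at passage 5, and 2 were lower at passage 10 than at passage 6. Of the 4 hepatocyte markers tested, 2 were lower at passage 10 than at passage 6, Ttr (-0.87) and Hnf4a (-0.48). Likewise 2 were lower than at passage 5, Ttr (-0.99) and Apoa1 (-1.69, on 7 to 51 counts per library). Alb went the other way without being called (0.52 against each of these passages). Of the 7 duct markers 1 was called between passages 10 and 5, Sox9, which was higher (0.93). The part of these features in the passage differences was not tested.

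**Figure D5:**
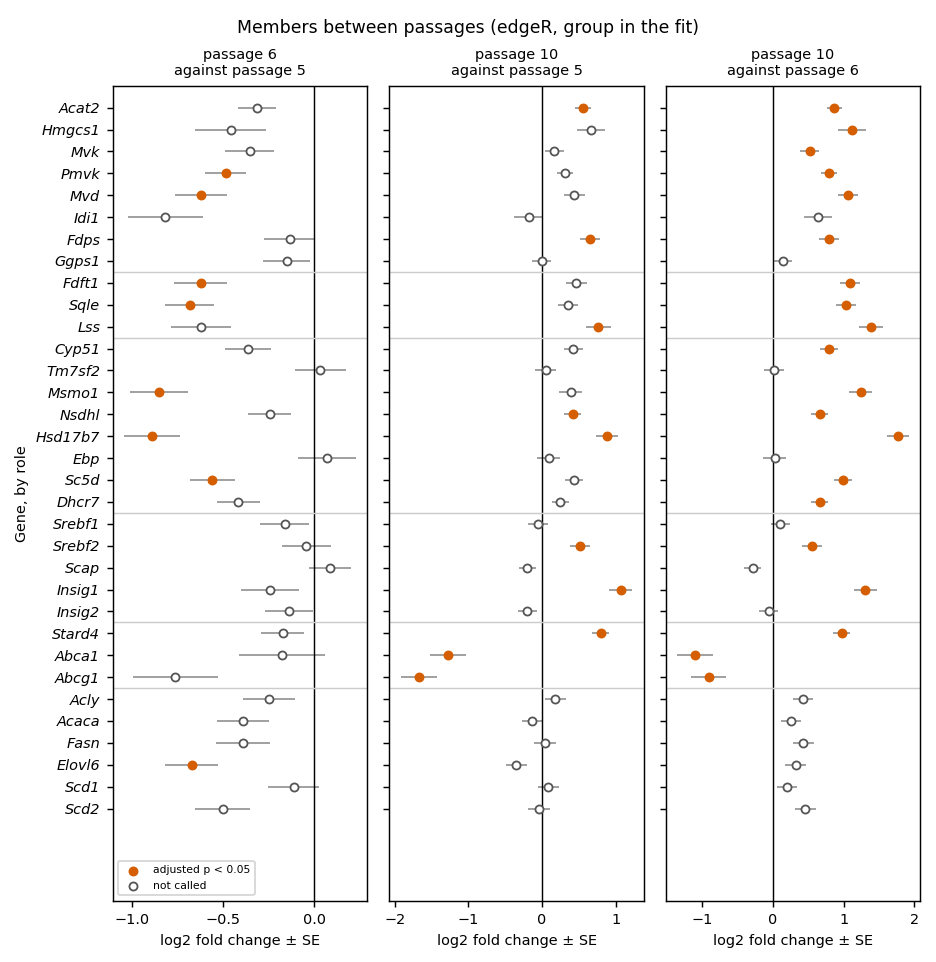
Log2 fold change with its standard error for each member, by role, in the 3 comparisons between passages; filled points had an adjusted p under 0.05 and the panels have their own scales. Between passages 10 and 6 the filled points lie right of 0 except those of Abca1 (-1.10) and Abcg1 (-0.91).

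Genes around the pathway, outside the 33 members, were counted from lists of their own, and the shares of all genes given above for each comparison serve as background: 35.5% called (20% lower) for Rspo1-negative and 13.2% (6.77% lower) for Rspo1-positive against untreated, and 8.45% (4.4% higher, 4.05% lower) for passage 10 against 6. With so few genes a list, the counts are a description. The trend in GC content and length was not removed from these values. Its part in the comparisons with Rspo1-negative cells was not tested for these lists. Of 8 genes for SREBP cleavage and sterol-sensing degradation none was called between passages 10 and 6 by edgeR or DESeq2 and none had an unadjusted p under 0.05, while 2 were lower in Rspo1-negative than in untreated cells: the protease gene Mbtps2 (-1.14) and the ligase gene Rnf145 (-0.48). Of 8 other genes of sterol synthesis and uptake 3 were higher at passage 10 than at passage 6 and none lower, by edgeR and by DESeq2. Lbr, which encodes the lamin B receptor with its sterol reductase domain, had a called log2 change of 0.47 in Rspo1-positive and of -0.37 in Rspo1-negative cells relative to untreated ones, while Tm7sf2, which catalyses the same step, had -0.57 and 0.08. Of 11 tested genes of LXR signalling, cholesterol export and storage, 2 were higher and 2 lower at passage 10 than at passage 6 by edgeR, while DESeq2 called 3, of which 1 was higher. The biliary sterol exporter Abcg5 (1.62, on 5 to 32 counts per library) and the sterol hydroxylase Cyp27a1 (1.06) were the higher ones, and the cholesterol esterifying enzyme Soat1 (-1.10) and the LXR gene Nr1h3 (-0.65) the lower ones. Between the Rspo1 groups, Nr1h3 was lower in the positive one (-0.87).

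Of 17 tested genes of other fatty acid and glyceride synthesis, 5 were higher and 2 lower at passage 10 than at passage 6 (background 4.4% higher and 4.05% lower). Acacb, the mitochondrial acetyl-CoA carboxylase (0.80), the desaturase Fads1 (0.60), the acetyl-CoA synthetase Acss2 (0.54), Mid1ip1 (0.55) and the citrate carrier Slc25a1 (0.51) were higher, and the acyltransferase Gpam (-0.75) and the elongase Elovl7 (-0.73) lower. In Rspo1-positive against untreated cells (background 6.77% lower and 6.44% higher) 4 of the 17 were lower, Dgat2 (-1.08), Acss2 (-0.81), Elovl5 (-0.52) and Elovl1 (-0.44), and 1 was higher, the carbohydrate-responsive factor gene Mlxipl (1.42). Among genes of fatty acid oxidation, the fatty acid receptor gene Ppara (-1.72), the carnitine palmitoyltransferase Cpt1a (-0.56) and the carnitine carrier Slc25a20 (-0.45) fell in Rspo1-positive relative to untreated cells by the edgeR test. Ppara was low, at 57 to 109 counts in untreated libraries. These genes are examples and do not show a change of the oxidation genes as a whole.

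The authors' deposited tables gave an adjusted p under 0.05 to 5, 13 and 14 members for Rspo1-positive against untreated, Rspo1-negative against untreated and Rspo1-positive against Rspo1-negative cells, where 13.9%, 27% and 44.1% of the genes in those tables did. Of these, 4, 13 and 13 were also called here in the same direction. In the authors' deposited tables Hmgcs1 had log2 fold changes of -0.08, -1.59 and 1.501 in the same order.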

How the data were processed

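RNA from sorted organoid cells was sequenced in 9 libraries. The counts per gene were made by the authors with Trimmomatic 0.35, STAR 2.5.1b and featureCounts on GRCm38, per the submitters' processing notes; the strand setting and annotation are not given in the sources used here. The authors also deposited FPKM values, used for levels between genes, and tables of their group comparisons with log2 fold changes, p-values, a test score (the Wald statistic) and a mean signal over the libraries, per the file headers; the last 2 were not used. Total counts were 23423979 to 37351448 per library. The column headers of the third replicate carry the number 4, and each library was taken from its own file.

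Counts were fitted with edgeR 4.0.16 (R 4.3.3): genes with a minimum count of 10 (17011 of 32137), TMM scaling, and group and passage as terms over all 9 libraries. Each comparison was tested by the quasi-likelihood test, two-sided, with Benjamini-Hochberg adjustment. SE is the log2 fold change divided by the square root of F. The code was tested on simulated data. Passage pairs the libraries: after removal of group means, the correlation was 0.123 to 0.573 in the 9 pairs that share a passage and -0.476 to 0.083 in the other 18. Replicates differed beyond sampling noise (chi-square per gene 52.7 to 479.9). Alternatives were a fit without the passage block, an offset for GC content and length from GENCODE M21 transcripts, upper-quartile scaling, no filter, 6 libraries only, DESeq2 1.42.0, and leaving out each library.

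The members and lists were chosen with earlier results of these data known. Every member is named. Values per library were to be given for up to 12 members called between groups with the largest absolute change and for the 5 regulators, and those of other members were added after their values had been seen. Promoters were to be printed for members with TCACNCCAC, and 2 more were added later. RefSeq promoters of 7 members were not in the table used, and no proteins were used here. Some genes of the fatty acid oxidation list, and that list's counts, are not reported here.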

Additional observations from a re-analysis of the deposited data

How the results depend on the processing

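With no replicate block, that is without passage in the fit, the members called fell from 4 to 2 (Rspo1-positive against untreated), from 13 to 6 (Rspo1-negative against untreated) and from 13 to 6 (Rspo1-positive against Rspo1-negative), and all genes called were 886, 3724 and 4141 in place of 2247, 6039 and 6624. Without group in the fit the passage counts fell from 10 (passage 10 against 5), 8 (6 against 5) and 20 (10 against 6) to 0 each. With the block and an offset for GC content and length, 8 and 6 members were called in the comparisons that involve Rspo1-negative cells (against untreated, and Rspo1-positive against them), 7 lower with 1 higher and 5 higher with 1 lower, in place of 13 lower, and of 8 higher with 5 lower; all genes called were 3258 and 3741. Ggps1 (-0.12) and Sc5d (-0.13) reversed between Rspo1-positive and Rspo1-negative cells with that offset. Passage 6 against 5 gave 5 members with upper-quartile scaling, 13 without a filter, 13 with DESeq2 and 3 from its 6 libraries alone, and passage 10 against 5 gave 19 from its 6 libraries. With each library left out the members called were 1 to 5, 8 to 16 and 7 to 14 between groups and 4 to 17, 0 to 7 and 16 to 19 between passages, and all genes called were 1112 to 2519, 3229 to 7427 and 3674 to 8264. Fewer libraries enter those fits; otherwise the cause was not tested. Of 1020 refits of the 68 called gene results, 789 kept direction and call, 229 lost the call and 2 reversed; of 1950 refits of the 130 uncalled ones, 63 became called. Depth limits Abca1, Idi1 and Abcg1 most, the members with the lowest FPKM.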
